A study of Mus musculus with 8 samples.

Results

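The protein disulfide isomerases described here are the genes of 10 thiol-handling proteins of the endoplasmic reticulum (ER): Agr2, P4hb, Pdia2, Pdia3, Pdia4, Pdia5, Pdia6, Txndc5, Erp44 and Tmx1. They were named as a list, and a member was measured where an array feature (a set of probes summarised as 1 value) had that gene as its only symbol in the platform's annotation. This held for 9 of the 10 genes, each with 1 feature of its own, among 18820 genes measured in this way. Pdia4, the gene of ERp72, had 1 feature that it shares with the microRNA gene Mir704, so no value is given for it.

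Pancreas RNA of 4 Sel1L knockout and 4 wild type samples was hybridised to 8 whole-transcript arrays. The knockout group was fl/fl;ERCre+ and carried an estrogen receptor-Cre fusion under an actin promoter, which is not limited to pancreas. The wild type group was fl/fl;ERCre-, littermates with the same floxed exon 6 of Sel1l and no Cre. All mice were 8 to 20 weeks old, on the C57BL/6J background (with embryonic stem cells of C57BL/6N), and received tamoxifen at 5 mg/ml and 5 μl per g of body weight by daily injection for 3 days. The interval between injection and tissue collection is not given in the sources used here. Because controls lacked Cre, the effect of losing Sel1L cannot be told apart from that of active Cre, nor an effect within pancreas from one that starts in other tissues. The labels do not say that each sample is a separate animal, so p-values measure only how far these samples spread, and that spread may be technical.

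Secretory proteins form disulfide bonds in the ER. Isomerases with thioredoxin-like domains introduce these bonds, shuffle wrong ones and reduce those of proteins bound for degradation, while ER oxidases such as Ero1 return the isomerases to their oxidised state. The acinar cell of the pancreas secretes digestive enzymes that hold several disulfide bonds each, and Sel1L with the Hrd1 ubiquitin ligase removes ER proteins that fail to fold. The question addressed is which of these isomerase genes differed in RNA level when Sel1L was deleted, and whether they differed by the same amount.

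Values are on the log2 scale of the deposited RMA data, so a difference of 1 is a 2-fold change. Array medians were 5.053, 5.037, 5.050 and 4.998 in knockout, all above the 4.994, 4.938, 4.951 and 4.949 of wild type. This offset has the direction of a rise. Centring the arrays on their medians lowered the median difference of the 9 isomerase genes from 0.33 to 0.26. The highest value of the table was 14.4. With 4 arrays per group, that number limits the precision. Sel1l itself was at 11.68, 11.66, 11.70 and 11.45 in the knockout arrays, against 12.37, 12.38, 12.38 and 12.39 in the wild type arrays, a difference of -0.76 (SE 0.0788, limma adjusted p = 0.000196). Wild type replicate 2 stood apart: the mean of the 10 macrophage markers was 6.20 in it, against 7.96 to 8.61 in replicates 1, 3 and 4 of wild type, and that of the 9 fibroblast markers was 6.97, against 8.04 to 8.44. Knockout replicate 1 was the highest of its group for both lists. Its means were 8.48 and 8.50, against 7.49 to 7.76 and 7.71 to 7.82 in the other knockout arrays. The acinar enzyme genes Cpa1 and Ctrb1 were among the brightest features, at means of 13.78 and 13.94 in knockout and 13.93 and 14.08 in wild type, as befits the labelled tissue. In bulk tissue, fewer cells of a type and less RNA per cell cannot be told apart.

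Of the 9 isomerase genes measured, 6 rose in the knockout arrays, 0 fell and 3 did not pass the test (limma over all 18820 genes, Benjamini-Hochberg adjusted p under 0.05). Of all genes tested, 16.1% rose and 12.6% fell, 28.7% in either direction. Rises were more frequent among brighter genes, and all 9 isomerase genes are bright. In a fit of only the 9410 genes above the median level, 3013 rose and 1163 fell, and 7 of the 9 isomerase genes rose. The isomerase genes were chosen with earlier results of these data known, so setting them beside all genes is not a test of the list. The median difference of the 9 genes was 0.33, against -0.04 for all genes. In 7 of the 9 every knockout array lay above every wild type array, which held for 17.6% of all genes. The opposite, knockout below wild type without overlap, held for 0 of the 9 and for 14.6% of all genes. The shares without overlap were not taken for the brighter genes alone. After cyclic loess between arrays 4 isomerase genes rose and 1 fell, and without wild type replicate 2 there were 5 rises and 0 falls. Among all calls the share that was higher in knockout depended on the scaling: it was 56.0% as deposited, 42.9% with quantile normalization, 36.3% with arrays centred on their medians and 48.1% with cyclic loess.

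**Figure D1:**
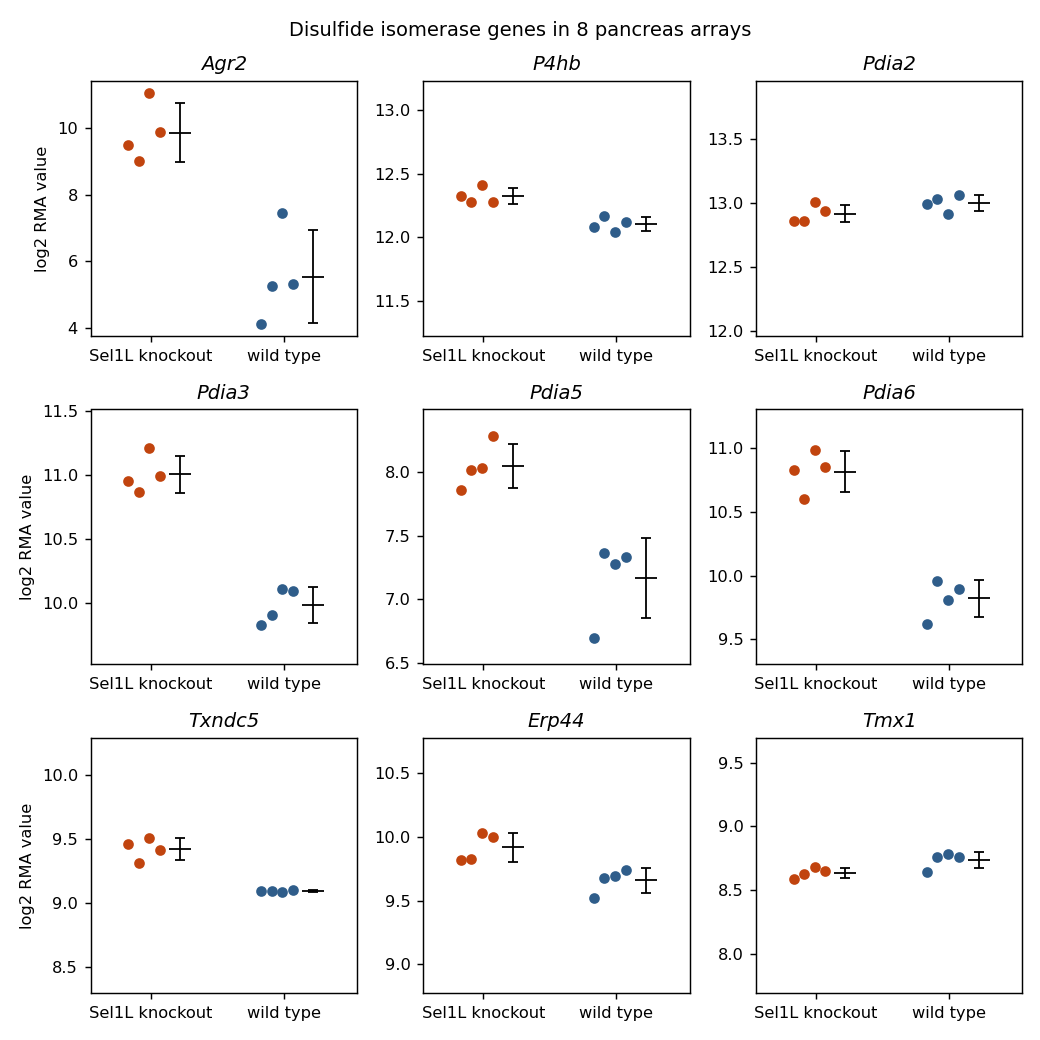
Log2 RMA value (vertical axis) of each measured isomerase gene in the 4 Sel1L knockout arrays (left of each panel, replicates 1 to 4 from left to right) and the 4 wild type arrays (right of each panel, same order); bars give the mean and SD. The axes have different origins; all span at least 2 log2 units, and that of Agr2 is wider. Agr2, Pdia3, Pdia5 and Pdia6 show gaps of 1.56, 0.76, 0.49 and 0.65 between the lowest knockout and the highest wild type array, while the groups overlap for Pdia2 and Tmx1.

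Agr2 encodes an isomerase of mucus-secreting and other epithelial cells that is known for folding intestinal mucins in the mouse. Its values were 9.50, 9.01, 11.07 and 9.90 in the knockout arrays, against 4.11, 5.27, 7.45 and 5.32 in the wild type arrays. All 4 knockout arrays lay above all 4 wild type arrays, replicate 3 was the highest in either group, and wild type replicate 1 lay below the median of its own array. The means were 9.87 ± 0.879 in knockout and 5.54 ± 1.39 in wild type (SD, n = 4 each). Agr2 rose by 4.33 (SE 0.653, 95% interval 2.87 to 5.79, limma adjusted p = 0.00143), a 20.1-fold rise with a wide error. Over all alternatives run, the difference lay between 3.85, without wild type replicate 1, and 4.97, without wild type replicate 3.

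The Agr2 rise was not accompanied by a rise of the listed markers of mucous and goblet cells. Of 14 measured, 0 rose and 6 fell, and 8 lay below the array median on all 8 arrays. Over all genes 16.1% rose and 12.6% fell, but how many dim genes rose was not counted, so dim markers say little here. In the fit of only the 9410 genes above the median level, 0 of 5 markers rose and 4 fell. In that fit 3013 of all genes rose and 1163 fell. Muc1, which encodes a membrane mucin, fell by 2.39 (SE 0.244, limma adjusted p = 0.000182). Spdef, the gene of a goblet cell transcription factor, fell by 0.49 (SE 0.115, limma adjusted p = 0.0119). Zg16 fell by 0.43 (SE 0.0741, limma adjusted p = 0.00267). In wild type, Zg16 and Tff2 were at means of 13.41 and 13.28, near the acinar enzyme genes, and Muc1 at 11.29. Which cells of this tissue express the listed markers was not tested, so their falls cannot be assigned to mucous cells. Muc6, Tff3 and Atoh1, all below the array median on all 8 arrays, were called lower as well, but these calls were lost in 2, 8 and 7 of 16 alternatives. After cyclic loess 3 markers of the list fell, and 0 rose under any alternative. The list mean ranged from 5.88 to 6.00 in knockout and from 6.33 to 6.39 in wild type arrays. Agr3, the closest relative of Agr2 in the genome, stayed between 2.24 and 2.45 in knockout and between 2.25 and 2.61 in wild type, below every array's median. The groups overlapped for the duct markers only by knockout replicate 2 and wild type replicate 3. The mean of 7 markers was 6.28, 6.17, 6.33 and 6.22 in knockout, against 5.96, 5.94, 6.18 and 6.04 in wild type. Sox9 was at 9.60 in wild type replicate 3 and at 8.06 to 8.55 in the other wild type samples. Of the 7 markers 1 rose, Epcam, by 0.67 (SE 0.0852, limma adjusted p = 0.000586), and 0 fell. At an unadjusted limma p under 0.05 the number was 3. Krt19, with a difference of 0.30, passed without knockout replicate 3, and Krt7, with 0.37, without knockout replicate 4. Car2, with 0.35, passed without wild type replicate 4. Sox9 and Tspan8 had differences of -0.32 and -0.08. The part of the duct markers in the Agr2 result was not tested.

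**Figure D2:**
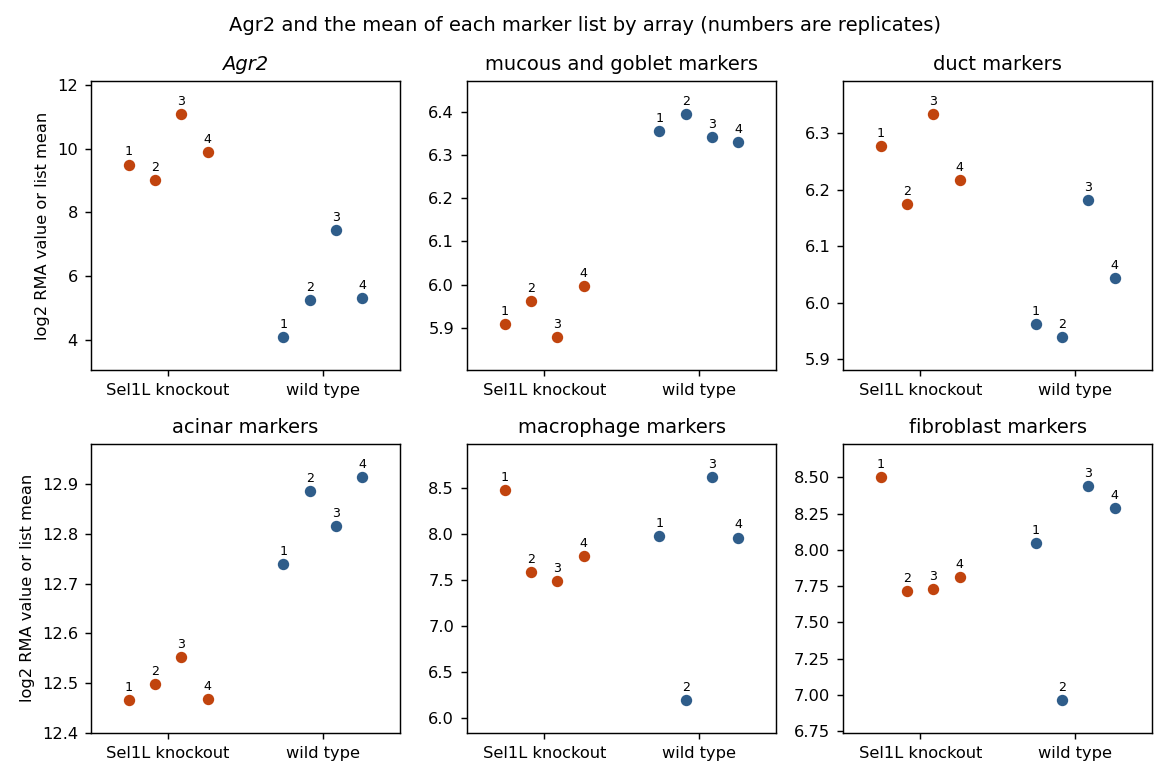
Log2 RMA value of Agr2 and the mean log2 value of 5 marker lists (vertical axes, with different origins) in Sel1L knockout (left) and wild type arrays (right), numbered by replicate. The mean of the mucous and goblet list is at 5.88 to 6.00 in knockout and 6.33 to 6.39 in wild type, opposite in direction to Agr2. Its markers differed unevenly, from -2.39 for Muc1 to -0.03 for Foxa3. Wild type replicate 2 is lowest for the macrophage and fibroblast lists, at 6.20 and 6.97.

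The genes closest to Agr2 in their values across arrays were Fetub, Kirrel3, Ahsg, Ndnf and Trib3, with root mean square differences of the mean-centred log2 values of 0.893, 0.942, 0.943, 0.954 and 0.973 over the 8 arrays. Fetub and Ahsg encode plasma proteins of the fetuin family, and Trib3 a pseudokinase induced by ATF4. These distances are large beside those of the other isomerases, whose nearest genes lay between 0.0239 and 0.0984 away. The distance is not scaled to the size of a change, so genes near Agr2 must have large rises too. Those of the 5 genes lay between 3.72 (Trib3) and 5.48 (Fetub), and whether they share more with Agr2 than that size was not tested.

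Pdia3 encodes ERp57, which works on glycoproteins held by calnexin and calreticulin. It was at 10.96, 10.87, 11.21 and 11.00 in the knockout arrays, against 9.82, 9.91, 10.10 and 10.09 in the wild type arrays. The groups did not overlap, and replicate 3 was the highest in each. Pdia3 rose by 1.03 (SE 0.102, 95% interval 0.80 to 1.26, limma adjusted p = 0.000159), 2.04-fold.

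Pdia6 encodes P5, an isomerase that binds the chaperone BiP. Its values were 10.83, 10.60, 10.98 and 10.85 in knockout, against 9.62, 9.96, 9.81 and 9.90 in wild type. Again every knockout array was above every wild type array, and Pdia6 rose by 1.00 (SE 0.107, 95% interval 0.76 to 1.23, limma adjusted p = 0.000233). Its nearest genes over the 8 arrays were Gnpnat1 (distance 0.0677), Nucb1 (0.0780) and Hyou1 (0.0790), the last of which encodes an ER chaperone of the Hsp70 family. Those of Pdia3 were Parn, Fmo1 and Sema3c, and those of Pdia5 were Psmg2, Slc30a5 and Gsto1. Hyou1 was the only gene of the related lists among the nearest genes of any isomerase.

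Pdia5 encodes PDIR, a less studied isomerase of the ER lumen. It was at 7.86, 8.02, 8.03 and 8.28 in knockout, against 6.70, 7.36, 7.28 and 7.33 in wild type. Wild type replicate 1 was low, and the groups did not overlap. Pdia5 rose by 0.88 (SE 0.157, 95% interval 0.53 to 1.23, limma adjusted p = 0.00335).

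Txndc5, P4hb and Erp44 differed by less. Txndc5 encodes ERp46, an isomerase that transfers disulfides rapidly to unfolded chains, and was at 9.46, 9.31, 9.51 and 9.41 in knockout, against 9.09, 9.09, 9.08 and 9.10 in wild type. The wild type arrays were nearly alike and all below the knockout arrays. Txndc5 rose by 0.33 (SE 0.0723, limma adjusted p = 0.00869), and after cyclic loess its difference of 0.22 missed the threshold (adjusted p = 0.0596).

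P4hb encodes the classical protein disulfide isomerase, which is also a subunit of collagen prolyl 4-hydroxylase and of the microsomal triglyceride transfer protein. It was at 12.32, 12.28, 12.41 and 12.28 in knockout, against 12.08, 12.17, 12.04 and 12.12 in wild type, with no overlap. The rise was 0.22 (SE 0.0723, 95% interval 0.06 to 0.38, limma adjusted p = 0.0466), 1.16-fold. The call ended when any 1 array was left out (limma adjusted p = 0.0537 to 0.127) and under each of the 3 other scalings (limma adjusted p of 0.0946 with quantile normalization, 0.16 with centring and 0.0689 with cyclic loess).

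Erp44, which retains Ero1 oxidases and other clients in the early secretory pathway, was at 9.82, 9.83, 10.03 and 10.0003 in knockout, against 9.52, 9.68, 9.69 and 9.74 in wild type. The groups did not overlap, but the difference of 0.26 (SE 0.0875, 95% interval 0.06 to 0.46) missed the threshold over all genes (limma adjusted p = 0.0503). It passed in limma with trend and robust variance (adjusted p = 0.0221), with the dimmer genes left out (0.0282), with features averaged per gene (0.0493) and with features tested singly (0.0487).

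Pdia2 and Tmx1 showed no rise. Pdia2 encodes PDIp, the isomerase known for its restriction to the exocrine pancreas in human tissues. It was at 12.86, 12.86, 13.00 and 12.94 in knockout, against 13.00, 13.03, 12.91 and 13.07 in wild type. The groups overlapped, and the difference was -0.08 (SE 0.0746, 95% interval -0.25 to 0.08, limma adjusted p = 0.409). Acinar markers moved as well: of 7 measured 4 fell and 0 rose, beside 12.6% lower and 16.1% higher over all genes. Their list means were 12.47 to 12.55 in knockout and 12.74 to 12.91 in wild type. With quantile normalization 2 of the 7 fell (the Cel and Prss2 calls were lost), and with arrays centred 6 did. The part of these markers in the Pdia2 values was not tested. Whether so bright a feature still responds to more RNA was not tested either.

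Tmx1 encodes a transmembrane thioredoxin-related protein of the ER. It was at 8.59, 8.62, 8.68 and 8.65 in knockout, against 8.64, 8.76, 8.79 and 8.76 in wild type, a difference of -0.10 (SE 0.0708, 95% interval -0.26 to 0.06, limma adjusted p = 0.294). After cyclic loess the difference was -0.23 and passed the threshold as a fall (limma adjusted p = 0.034).

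**Figure D3:**
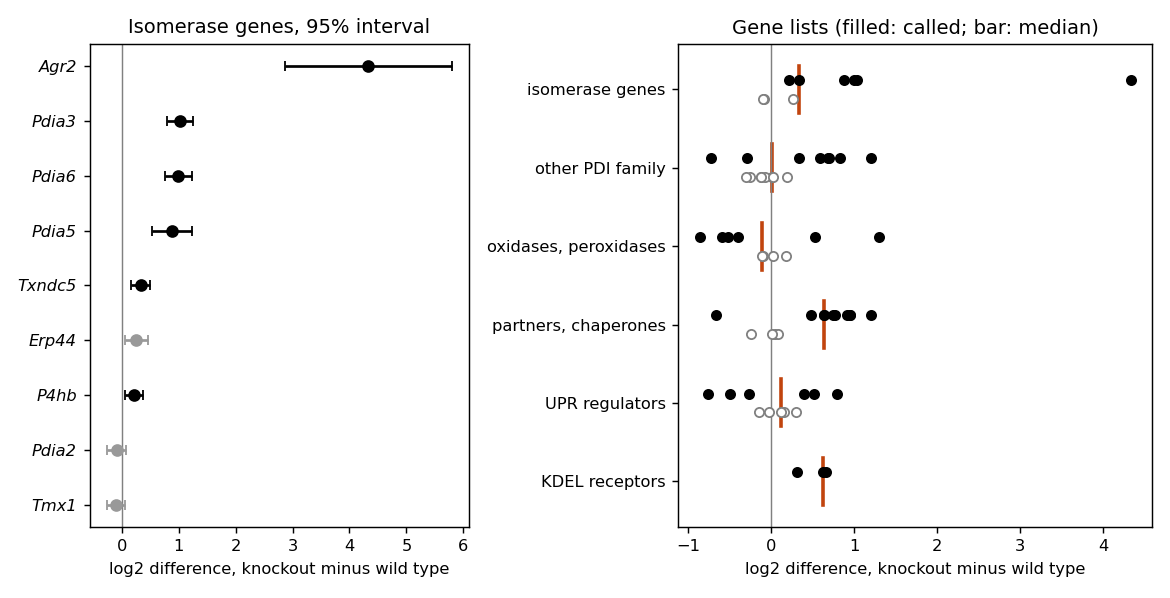
Log2 difference, Sel1L knockout minus wild type. Left: the 9 isomerase genes with the 95% interval of the limma fit, black where the adjusted p was under 0.05 and grey otherwise. Right: the same difference for each measured gene of the isomerases and of 5 related lists, filled and slightly higher where called, open and slightly lower otherwise, with the list median as a vertical bar. Agr2 stands alone at 4.33, Pdia3, Pdia6 and Pdia5 lie between 0.88 and 1.03, and the intervals of Pdia2 and Tmx1 include 0.

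Whether the isomerase genes changed by unequal amounts was tested for all 36 pairs of the 9 genes. For each pair, the log2 difference between both genes within an array was compared between knockout and wild type arrays by an exact two-sided permutation test, in which any shift common to an array cancels. Of the 36 pairs, 29 differed (exact permutation p = 0.0286 each, adjusted p = 0.0355 over the pairs). The smallest p that 4 against 4 arrays can give is 0.0286, and the adjusted value passes because so many pairs reached it. All 8 pairs with Agr2 were among the 29. Agr2 exceeded Pdia3, the next gene in size, by 3.30 on the log2 scale. A weaker response of bright features, such as those of Pdia2 and P4hb, would not cancel within an array, and it was not tested.

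The 7 pairs that did not pass lay within 3 sets of neighbours in the order of size. Pdia3 exceeded Pdia6 by 0.03 (exact permutation p = 0.771) and Pdia5 by 0.15 (exact p = 0.4), and Pdia5 was 0.12 below Pdia6, a difference of -0.12 (exact p = 0.257). Txndc5 exceeded Erp44 by 0.07 (exact p = 0.343), P4hb differed from Txndc5 by -0.11 (exact p = 0.0571) and from Erp44 by -0.04 (exact p = 0.629), and Pdia2 exceeded Tmx1 by 0.02 (exact p = 0.829). These p-values do not show that those genes changed alike. Between these sets every pair passed: Pdia3 exceeded Txndc5 by 0.70 and Pdia2 by 1.11, and P4hb exceeded Pdia2 by 0.30. With 1 array left out, between 21 and 29 of the 36 pairs passed.

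**Figure D4:**
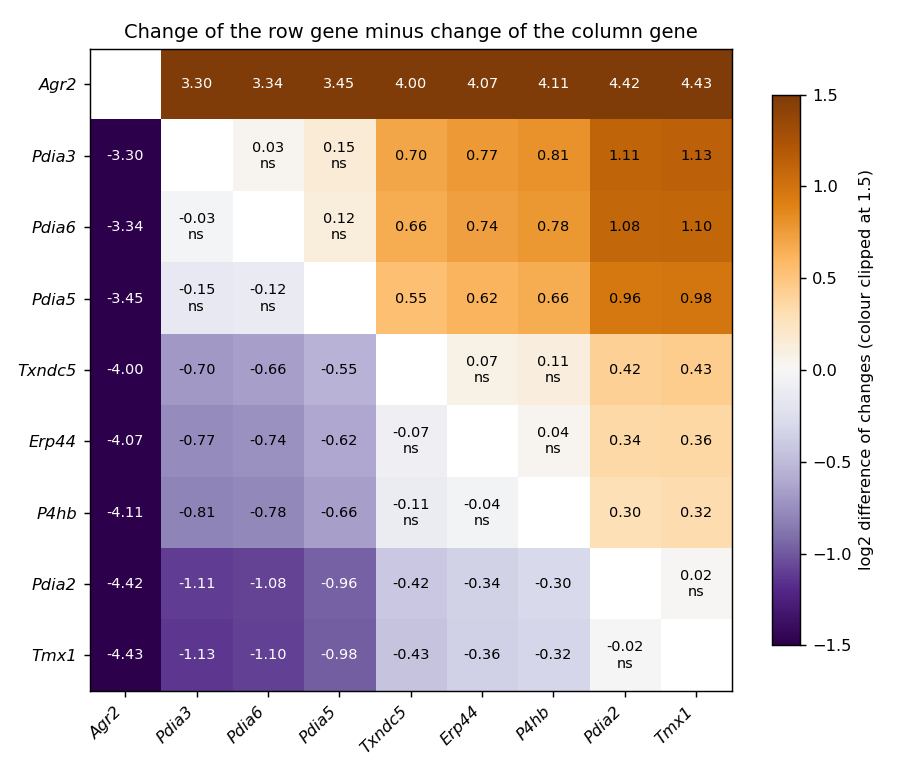
Change of the row gene minus change of the column gene (log2, knockout minus wild type), for all pairs of the 9 measured isomerase genes in order of their own change; ns marks pairs whose adjusted exact permutation p was 0.05 or more. The 7 pairs marked ns lie along the diagonal, and the row of Agr2 holds differences of 3.30 to 4.43.

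RNA of many ER chaperones is raised by the unfolded protein response (UPR), in which the transcription factor ATF6, with NF-Y, binds the ER stress response element (ERSE), XBP1 binds elements with the UPRE core, and ATF4 binds CARE elements. RefSeq promoters (GRCm38.p6, 250 bases before to 50 bases after each annotated start) were searched on both strands for ERSE as CCAAT and CCACG with 9 free bases between them, the same with its last base free, ERSE-II as ATTGG and CCACG with 1 free base between them, the UPRE core TGACGTGG and the CARE core TGATGCAA. Every ERSE match is also a match of the form with a free last base. All 10 isomerase genes had at least 1 promoter in the table. ERSE was found in 0.119% of all 32851 promoters and in Pdia6 alone of the 10. With the last base free it was found in 0.365% of all promoters and in Pdia3, Pdia4 and Pdia6. The UPRE core, in 0.676% of all promoters, was found in 1 of the annotated promoters of Txndc5, and ERSE-II and the CARE core in none of the 10. A match describes the letters in this window and says nothing of binding.

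The 250 bases before the start of Agr2, Pdia3, Pdia6 and Pdia2 are shown because these genes span the range of changes; capitals mark an ERSE match, the last base free in Pdia3. They are written 5′ to 3′ on the strand of the gene, from chr12:35992675-35992924 (plus strand) for Agr2, chr2:121413652-121413901 (plus) for Pdia3, chr12:17266339-17266588 (plus) for Pdia6 and chr17:26199088-26199337 (minus) for Pdia2.
Agr2: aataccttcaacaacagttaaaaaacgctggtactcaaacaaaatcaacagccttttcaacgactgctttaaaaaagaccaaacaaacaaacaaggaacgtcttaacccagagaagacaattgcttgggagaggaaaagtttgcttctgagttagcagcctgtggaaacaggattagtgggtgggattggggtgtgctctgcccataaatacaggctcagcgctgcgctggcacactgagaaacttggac
Pdia3: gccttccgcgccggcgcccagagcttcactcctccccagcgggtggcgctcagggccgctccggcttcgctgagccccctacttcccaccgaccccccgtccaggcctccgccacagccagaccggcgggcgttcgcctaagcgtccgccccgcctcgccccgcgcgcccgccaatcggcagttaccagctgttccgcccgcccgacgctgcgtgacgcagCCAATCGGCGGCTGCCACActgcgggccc
Pdia6: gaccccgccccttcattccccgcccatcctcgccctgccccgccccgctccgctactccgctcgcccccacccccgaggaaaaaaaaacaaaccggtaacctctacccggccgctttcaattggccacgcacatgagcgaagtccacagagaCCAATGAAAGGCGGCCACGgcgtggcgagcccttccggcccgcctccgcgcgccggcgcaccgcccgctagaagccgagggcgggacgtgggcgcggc
Pdia2: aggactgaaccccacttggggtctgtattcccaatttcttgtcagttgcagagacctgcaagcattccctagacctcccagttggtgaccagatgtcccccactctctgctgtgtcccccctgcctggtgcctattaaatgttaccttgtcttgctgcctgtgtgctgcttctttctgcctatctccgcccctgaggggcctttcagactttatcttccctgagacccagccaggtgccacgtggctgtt

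The match in Pdia3 runs from base -29 to -11 before the start and that in Pdia6 from -98 to -80. Agr2, with the largest rise of the 9 genes, and Pdia2, which did not rise, held none of the 5 motifs in this window.

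ERSE was also found in 6 genes of the related lists, so that 7 of 58 listed genes with a promoter held it, against 0.137% of all genes. The lists were drawn up from genes of known ER proteins, and 4 of the 7 are from the list of partners and chaperones. The choice of lists alone could give this share, so it is not a test. Of these 7, 5 rose, 1 fell and 1 did not pass the test, while 16.1% of all genes measured rose and 12.6% fell. The sites with 8 bases on each side are shown because they can be read beside the values that follow; capitals mark the element, each written on the strand that reads CCAAT first.
Pdia6: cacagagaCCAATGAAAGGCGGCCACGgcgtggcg
Hspa5: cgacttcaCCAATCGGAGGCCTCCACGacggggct
Calr: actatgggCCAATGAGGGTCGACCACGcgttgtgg
Creld2: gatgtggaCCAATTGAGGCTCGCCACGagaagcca
Canx: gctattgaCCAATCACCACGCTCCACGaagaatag
Ero1b: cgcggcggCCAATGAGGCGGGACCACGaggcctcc

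They lie at chr12:17266483-17266517 (plus strand) for Pdia6, chr2:34772017-34772051 (plus) for Hspa5, chr8:84847067-84847101 (plus) for Calr, chr15:88819512-88819546 (minus) for Creld2, chr11:50325792-50325826 (minus) for Canx and chr13:12565674-12565708 (minus) for Ero1b, on GRCm38.p6. Hsp90b1 held 2 such sites.

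Partners of the isomerases and chaperones that work with them mostly rose: of 14 measured, 9 rose, 1 fell and 4 did not pass, with a median difference of 0.64. Over all genes 16.1% rose and 12.6% fell. In the fit of only the 9410 genes above the median level, 3013 rose and 1163 fell. These backgrounds hold for each related list below, and no list was tested against them. Hsp90b1, the gene of the ER Hsp90, rose by 1.21 (SE 0.114), to 11.98 ± 0.195 in knockout, against 10.78 ± 0.14 in wild type (SD, n = 4 each; limma adjusted p = 0.000126). Hspa5, which encodes BiP, was at 12.38, 12.39, 12.63 and 12.54 in knockout, against 11.60, 11.75, 11.70 and 11.85 in wild type, and rose by 0.76. Hyou1 rose by 0.95 and Sdf2l1, which encodes a BiP-associated protein, by 0.74. The lectin partners of Pdia3 differed from each other: Calr, the gene of calreticulin, rose by 0.95 (SE 0.12, limma adjusted p = 0.000578), while Canx, the gene of calnexin, was at 11.47 ± 0.0641 in knockout and 11.43 ± 0.0953 in wild type (SD, n = 4 each; limma adjusted p = 0.705). The difference between Calr and Canx itself was not tested.

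The partners of P4hb went both ways. Mttp, whose protein forms the microsomal triglyceride transfer complex with the isomerase, rose by 0.91 (SE 0.112), to 5.87 ± 0.212 in knockout, against 4.96 ± 0.0959 in wild type (SD, n = 4 each; limma adjusted p = 0.000493). P4ha2, a catalytic subunit gene of prolyl 4-hydroxylase, was the 1 partner that fell, by 0.66 (SE 0.138, limma adjusted p = 0.00706). P4ha1 had a difference of -0.25 (limma adjusted p = 0.273), which passed without wild type replicate 2 (0.0469), and P4ha3 one of 0.01 (0.93).

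Among 16 other genes of ER proteins with thioredoxin-like domains or isomerase-like CXXC motifs, all measured, 6 rose, 2 fell and 8 did not pass. Their median difference was 0.02, and over all genes 16.1% rose and 12.6% fell. Creld2, whose protein has EGF-like domains and CXXC motifs but no thioredoxin-like domain, was at 11.40, 11.32, 11.84 and 11.80 in knockout, against 10.19, 10.49, 10.45 and 10.42 in wild type, and rose by 1.20 (SE 0.134, limma adjusted p = 0.000294). Erp29 rose by 0.83, Dnajc10, the gene of the reductase ERdj5 that acts in ER-associated degradation, by 0.69, Creld1, a relative of Creld2, by 0.68 and Txndc12, the gene of ERp18, by 0.58. Tmx3 rose by 0.34 (limma adjusted p = 0.0485), a call lost in 12 of 17 alternatives.

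Erp27 went the other way. It encodes an ER protein without catalytic cysteines that binds ERp57, and was at 10.99, 10.94, 11.03 and 10.99 in knockout, against 11.62, 11.83, 11.70 and 11.74 in wild type. The groups did not overlap, and Erp27 fell by 0.73 (SE 0.0742, limma adjusted p = 0.000177), a 1.66-fold fall. Pdilt, a testis isomerase gene, was the other gene of this list called lower, at 2.53 ± 0.105 in knockout and 2.82 ± 0.0685 in wild type (SD, n = 4 each; limma adjusted p = 0.0274), below every array's median; this call was lost in 7 of 16 alternatives, among them quantile normalization and cyclic loess.

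The listed oxidases, peroxidases and related enzymes, not all of which act on the isomerases, were split: of 10 measured, 2 rose, 4 fell and 4 did not pass. Over all genes the shares were 16.1% higher and 12.6% lower. Ero1a, the widely expressed oxidase, was at 9.42, 9.49, 9.78 and 9.66 in knockout, against 8.20, 8.19, 8.57 and 8.21 in wild type, and rose by 1.30 (SE 0.117, limma adjusted p = 9.84e-05). Ero1b, the oxidase that is abundant in the pancreas, was at 11.26, 11.19, 11.37 and 11.03 in knockout, against 11.87, 11.74, 11.50 and 11.80 in wild type, and fell by 0.52 (SE 0.106, limma adjusted p = 0.00679). The groups did not overlap for either gene. Vkorc1, an enzyme of vitamin K recycling, rose by 0.52. The sulfhydryl oxidase genes Qsox1 and Qsox2 fell by 0.86 and 0.40, and the peroxidase gene Gpx7 by 0.59. Prdx4, the gene of the ER peroxiredoxin, was at 9.67 ± 0.112 in knockout and 9.77 ± 0.211 in wild type (SD, n = 4 each; limma adjusted p = 0.511). The Qsox2 call was lost without knockout replicate 1 or 4 or wild type replicate 2 or 4, with an adjusted p of up to 0.0667.

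Genes that regulate this system moved both ways, with 3 of 11 measured higher, 3 lower and 5 not passing, beside 16.1% higher and 12.6% lower over all genes. Ern1, which encodes IRE1 alpha, an ER stress sensor, rose by 0.80 (SE 0.0888, limma adjusted p = 0.000293), Atf4 by 0.52 and Atf6b by 0.39. Xbp1 was at 12.10, 12.07, 11.99 and 11.49 in knockout, against 12.37, 12.32, 12.48 and 12.49 in wild type, and fell by 0.50 (SE 0.135, limma adjusted p = 0.0215). These values do not read Xbp1 splicing. Bhlha15, the gene of the acinar transcription factor Mist1 and 1 of the 4 acinar markers that fell, fell by 0.76. Ern2 also fell, by 0.27, at levels below every array's median. The Ern2 call was lost in 10 of 16 alternatives, and that of Atf6b under all 3 other scalings and without knockout replicate 3 or 4. Atf6 was at 10.39 ± 0.118 in knockout and 10.09 ± 0.176 in wild type (SD, n = 4 each); its difference of 0.30 did not pass (limma adjusted p = 0.0592) and passed without wild type replicate 2 among others (lowest adjusted p = 0.0283).

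All 3 KDEL receptor genes, whose products return escaped ER proteins such as the isomerases from the Golgi, rose, beside 16.1% of all genes. Kdelr2 rose by 0.66 (SE 0.0933, limma adjusted p = 0.00101), Kdelr3 by 0.62 and Kdelr1 by 0.31. The Kdelr1 call was lost after centring each array (limma adjusted p = 0.0502).

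The lists of markers of other cell types and tissues differed in their calls. Of all genes tested, 28.7% were called, 16.1% higher and 12.6% lower in knockout. Of 7 plasma and B cell markers 0 were called, with list means of 3.74 to 4.88 in knockout and 3.64 to 4.47 in wild type. Macrophage (10 measured), fibroblast (9) and adipose (5) markers also had 0 calls by limma with all arrays. At an unadjusted p under 0.05 the numbers were 0 for plasma and B cell, macrophage and fibroblast markers and 1 for adipose markers. The 0 for macrophage and fibroblast markers rests on wild type replicate 2: without it 3 of 10 macrophage markers and 1 of 9 fibroblast markers fell. These were Lyz2, with a difference of -1.27 (limma adjusted p = 0.039), Fcer1g (-0.78, 0.042), Cd14 (-0.70, 0.0422) and Col1a1 (-0.84, 0.0493). Without wild type replicate 3, 1 of 5 adipose markers, Fabp4, rose (limma adjusted p = 0.0392). Of 8 islet markers 1 rose, Ppy, and 1 fell, Pcsk1. Of 6 T cell markers 0 rose and 2 fell, and of 9 gut and liver markers 1 rose, Lgals4, and 2 fell. The Ppy call (limma adjusted p = 0.0487, with overlapping groups) was lost in 9 of 17 alternatives, among them all 3 other scalings. The falls of the T cell genes Cd2 and Cd8a were lost in 7 of 16 alternatives each, that of Cdh17 in 8 of 16 and that of Alb in 4 of 17. The part of these lists in the isomerase results was not tested.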

How the data were processed

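Pancreas RNA of 4 Sel1L knockout and 4 wild type samples was measured on 8 arrays. The deposited log2 values were made by the authors with RMA, as the submitters' processing notes name it. The RMA version, the set of arrays normalized together and any genome build were not given in the sources at hand. The table held 35556 features, of which 21218 had 1 gene symbol in the platform annotation, 1881 several and 12457 none listed. For each of 18820 genes the feature with the highest mean over all arrays was kept; no symbol needed updating through RefSeq.

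Sel1L knockout was compared with wild type by limma 3.58.1 (lmFit and eBayes, R 4.3.3) over all genes, with Benjamini-Hochberg adjustment and a threshold of 0.05. Every adjusted p in the text is from limma or, for pairs of isomerase genes, from exact two-sided permutation tests. The alternatives were 3 other scalings, the filter on dim genes, the treatment of features, the variance model, array weights, leaving out arrays singly, and a block for the replicate number. The scripts were tested on simulated data. Promoters were RefSeq's (GRCm38.p6), and motifs were searched in Python 3.11.15.

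The isomerase genes and the lists were chosen with earlier results of these data known. Named beside the isomerases were the genes of each pathway list with the smallest p, up to 6, Hspa5, Xbp1, Ern1 and Atf6, and up to 2 markers a list. Agr3, Canx, Prdx4, P4ha1, P4ha2, P4ha3, Tmx3, Pdilt, Ppy, Pcsk1, Lgals4 and markers named for a call that depended on a setting were named after their values were seen. Nearest genes were those with the smallest root mean square difference of mean-centred log2 values, predicted genes, unnamed clones, odorant and vomeronasal receptors and small RNAs left out.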

Additional observations from a re-analysis of the deposited data

Results flagged for a closer look

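Wild type replicate 1 was far below the other wild type arrays for Pdia5, at 6.70 against 7.28 to 7.36. Its gap to the nearest of them was 0.874 of the range of the group, above the value that Dixon's test allows for 4 samples. Of the 18 groups tested (9 isomerase genes, knockout and wild type), this was the 1 that stood out, and chance gives about 1 in 20. Without that array Pdia5 rose by 0.72 (limma adjusted p = 0.00274), against 0.88 with it.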

How the results depend on the processing

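Agr2, Pdia3, Pdia5 and Pdia6 kept their rise in all 17 alternatives, with differences of 3.85 to 4.97, 0.94 to 1.07, 0.72 to 0.94 and 0.92 to 1.07. Pdia2 was not called in any of them, and no isomerase gene changed direction where it was called. Between 5 and 7 of the 9 genes were called, and the number of genes called in all lay between 3721 and 6226. The P4hb call was lost in 12 alternatives. The deviations of same-numbered arrays from their group means had correlations of 0.222, 0.153, -0.27 and -0.020. These were not compared with differently numbered arrays, so whether the numbers pair the samples was not tested. With the replicate block 5 isomerase genes and 4678 of all genes were called. Of the 36 pairs of isomerase genes, 29 passed with features averaged, 30 after quantile normalization and 29 with limma, 21 to 29 with 1 array left out, and 0 with sign flips of the replicate block, whose smallest possible p is 0.125. Array signals do not separate closely related transcripts or isoforms, and no protein was measured.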
